A study of Solanum lycopersicum with 6 samples.

Results

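Cellulose synthases (CESA proteins) were followed in tomato roots, as 7 genes of 34688 gene models in a table of transcript counts. They were chosen by their identifiers, 4 as CESA genes of the primary wall (Solyc04g071650, Solyc08g061100, Solyc01g087210 and Solyc12g056580) and 3 as CESA genes of the secondary wall, or xylem (Solyc02g072240, Solyc07g005840 and Solyc09g072820). The first digits of each identifier give the chromosome, so that the genes lie on chromosomes 4, 8, 1, 12, 2, 7 and 9 in the order above. Neither the count table nor the reference table of assembly SLM_r2.1 annotates these identifiers, so the division into classes was taken as given. All 7 had enough counts to be tested.

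Protoplasted roots were compared with whole roots, a comparison that the study used to find genes induced by protoplasting. Both groups came from wild-type M82 seedlings 7 days after sowing, and each sample pooled 50 to 100 primary roots cut about 3 cm from the tip. The protoplasted group (3 libraries) was digested for 2 h at 25 °C with cellulases, macerozyme and pectolyase in mannitol buffer, then filtered through strainers and pelleted, so that it holds only cells that passed them. The whole-root group (3 libraries) had no treatment, and the labels describe no mock incubation for it, so that enzymes, incubation and filtering cannot be told apart. Libraries held 5198513 to 5666102 estimated counts in protoplasted roots and 5662566 to 5790082 in whole roots. The library type reads each transcript near its 3′ end, so counts were not divided by transcript length, and levels are given as normalised CPM, the counts of a gene scaled to a common library size. Because samples were bulk RNA, fewer cells of a type and less RNA per cell cannot be told apart. The labels do not say whether replicates came from separate sowings, and p-values measure the spread between these libraries.

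Cellulose is spun at the plasma membrane by rosette-shaped complexes, in which CESA proteins polymerise glucose from UDP-glucose. In Arabidopsis, growing cells use a primary wall complex, and xylem vessels and fibres use a different set of CESA isoforms to build the thick secondary wall once growth has stopped. The secondary wall isoforms of Arabidopsis are not interchangeable, and loss of one collapses the xylem vessels.

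The classes differed in level, and their fitted fold changes lay on opposite sides of 1. The 4 primary wall genes together stood at 1440 ± 33.1 CPM in protoplasted roots and at 937 ± 141 CPM in whole roots (SD, n = 3 each), and the 3 secondary wall genes at 61.6 ± 11.5 CPM in protoplasted roots and at 89.3 ± 14.9 CPM in whole roots (SD, n = 3 each). Only Solyc12g056580, of the primary class, rose past the threshold, by 2.04-fold. The remaining 3 primary wall genes had fold changes above 1 and all 3 secondary wall genes had fold changes below 1, without passing the test, and that of Solyc04g071650 turned below 1 with library-size scaling. By edgeR's quasi-likelihood test at an adjusted p under 0.05, 1 of 7 members was higher in protoplasted roots, where 17% of the 15966 genes tested were higher. None of the 7 was lower, where 18.7% of genes tested were lower. At an unadjusted p under 0.05, 2 members were higher and 1 was lower, where 46.2% of genes tested had such a p. DESeq2 and limma-voom also called 1 member higher and 0 lower, where they called 37.6% and 35.5% of genes tested in either direction. With the replicate block in edgeR, which matches libraries by the number in their labels, 3 members were higher and 1 was lower. The blocked fit called 25% of genes tested higher and 24.3% lower. By count, 1 member was also lower with library-size scaling, with at least 10 counts required in every sample, and without whole replicate 3. Those settings called 33.4%, 30.5% and 26.9% of the genes they tested, in either direction. Without whole replicate 1, 2 members were higher, where 35.4% of genes tested were called in either direction.

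**Figure D1:**
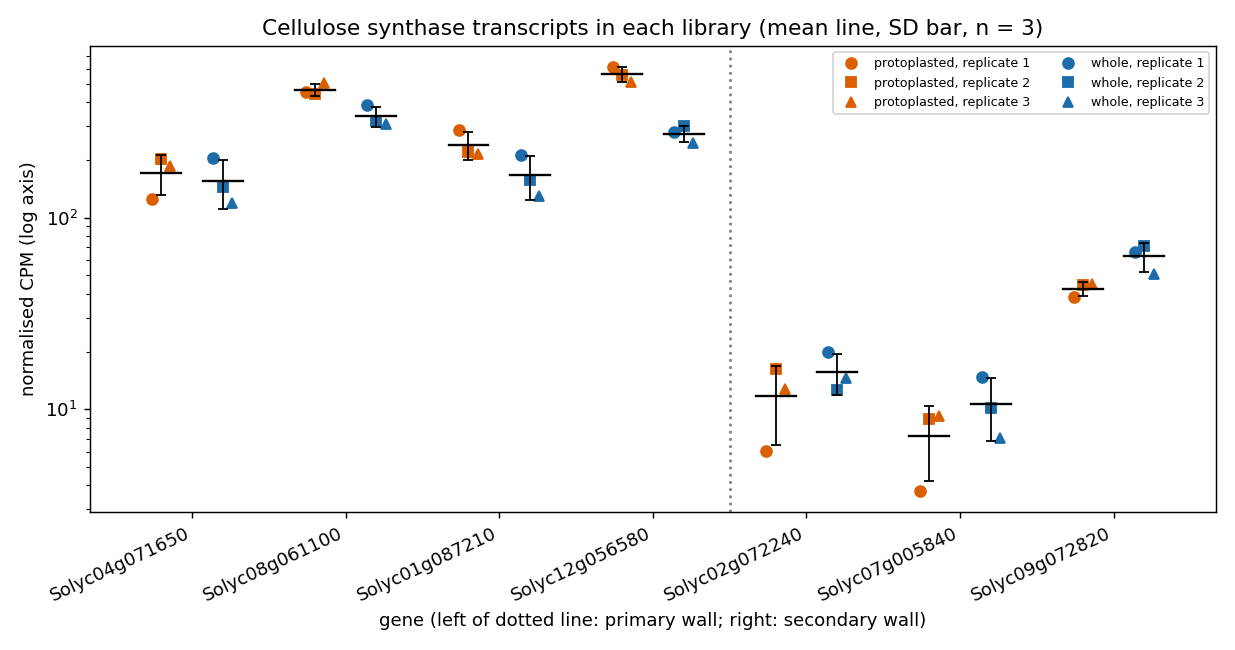
Normalised CPM (log axis) of the 7 cellulose synthases in each library, with protoplasted libraries left of whole-root libraries for each gene. Horizontal lines are means and bars are SD (n = 3), and the groups of Solyc12g056580 stand apart at 514 to 612 CPM in protoplasted roots and 245 to 300 CPM in whole roots.

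Solyc12g056580 was the most abundant member in protoplasted roots. It had 611.7, 557 and 514 CPM in protoplasted replicates 1, 2 and 3, against 279.7, 300.1 and 245 CPM in whole replicates 1, 2 and 3. Every protoplasted library was above every whole-root library, with no overlap. Its log2 fold change was 1.03 (standard error 0.19, 95% interval 0.60 to 1.46, adjusted p = 0.00416, edgeR's quasi-likelihood test). Taken within replicate numbers, the protoplasted level was 2.19, 1.86 and 2.10 times the whole-root level, so that the gain was of like size in all 3 pairs. Of all genes tested, 86.2% had a lower log2 fold change.

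Solyc08g061100 was the second most abundant member in protoplasted roots. Its level was 453, 440 and 507 CPM in protoplasted replicates 1, 2 and 3, against 387, 321 and 309.7 CPM in whole replicates 1, 2 and 3. The lowest protoplasted library was above the highest whole-root library. On the log2 scale the difference was 0.46 (standard error 0.19, 95% interval 0.03 to 0.89), with an adjusted p of 0.0900 in edgeR's quasi-likelihood test. With the replicate number as a block, the log2 fold change was 0.46 and the adjusted p was 0.0268, so that the gene passed the threshold in the blocked fit. Whether same-numbered libraries are pairs could not be settled, and the study states no pairing.

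Solyc01g087210 had 287 CPM in protoplasted replicate 1 and 219.5 and 216 CPM in replicates 2 and 3, against 213, 158 and 129.5 CPM in whole replicates 1, 2 and 3. The groups did not overlap, although protoplasted replicate 3 lay only just above whole replicate 1. A log2 fold change of 0.53 was fitted (standard error 0.24, 95% interval -0.02 to 1.09, adjusted p = 0.123, edgeR's quasi-likelihood test). With the block it was 0.55, with an adjusted p of 0.0124. The within-number ratios were 1.35, 1.39 and 1.67, all above 1. Without whole replicate 1, which was the highest whole-root library, the log2 fold change was 0.74 and the adjusted p was 0.0478 in edgeR. Without protoplasted replicate 1 it was 0.36 with an adjusted p of 0.354 in edgeR, and leaving out any other library gave no call.

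Solyc04g071650 was the least abundant primary wall member. Its values were 126, 202 and 186 CPM in protoplasted replicates 1, 2 and 3, against 206, 144 and 119 CPM in whole replicates 1, 2 and 3. The groups overlapped over most of their range, and the ratio within replicate 1 was 0.612 while those within replicates 2 and 3 were 1.40 and 1.56. The log2 fold change was 0.13 (standard error 0.28, adjusted p = 0.739, edgeR's quasi-likelihood test), and its 95% interval allowed any fold between 0.710 and 1.69. The sign turned with library-size scaling, without protoplasted replicate 2 and without whole replicate 3 (log2 fold changes of -0.038, -0.032 and -0.032).

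The fractional counts of Solyc04g071650 and Solyc12g056580 complemented each other. The estimated counts of both genes were not whole numbers in the same 4 libraries, yet their sum came to within 0.01 of a whole number in all 6. Kallisto divides reads that match several transcripts, so the split between the pair is an estimate, and the table does not give how many reads were divided. Counted as a single row, a setting chosen after seeing the data, the pair had 732 ± 30.2 CPM in protoplasted roots and 431 ± 61.6 CPM in whole roots (SD, n = 3 each). The log2 fold change of the sum was 0.76 (standard error 0.19, adjusted p = 0.0155, edgeR's quasi-likelihood test), above 0 and below that of Solyc12g056580 alone. The other 5 members had whole counts in every library.

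The 3 secondary wall genes were far less abundant. Solyc09g072820, the strongest of them, had 38.6, 44.4 and 44.9 CPM in protoplasted replicates 1, 2 and 3, against 66.5, 71.3 and 51.0 CPM in whole replicates 1, 2 and 3. All protoplasted libraries were below all whole-root libraries. Its log2 fold change was -0.56 (standard error 0.21, 95% interval -1.05 to -0.08), and the adjusted p of 0.0702 in edgeR's quasi-likelihood test missed the threshold. With the replicate block it was -0.55, with an adjusted p of 0.0308, which passed. Without whole replicate 3, the lowest whole-root library, it was -0.69 with an adjusted p of 0.0478 in edgeR. Leaving out any other library gave no call, and without whole replicate 2 it was -0.47 with an adjusted p of 0.214 in edgeR.

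Solyc02g072240 had 6.05, 16.2 and 12.7 CPM in protoplasted replicates 1, 2 and 3 (29, 79 and 70 counts), against 20.0, 12.7 and 14.5 CPM in whole replicates 1, 2 and 3 (125, 76 and 84 counts). Only protoplasted replicate 1 lay below the whole-root range. A log2 fold change of -0.43 was fitted (standard error 0.38, adjusted p = 0.411, edgeR's quasi-likelihood test), with a 95% interval from 0.406-fold to 1.36-fold. It was -0.14 without protoplasted replicate 1, -0.22 without whole replicate 1 and -0.77 without protoplasted replicate 2.

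Solyc07g005840 was the least abundant member of all. It had 3.76, 8.84 and 9.23 CPM in protoplasted replicates 1, 2 and 3 (18, 43 and 51 counts), against 14.7, 10.2 and 7.09 CPM in whole replicates 1, 2 and 3 (92, 61 and 41 counts). Protoplasted replicates 2 and 3 lay inside the whole-root range, and replicate 1 lay below it. The log2 fold change was -0.55 (standard error 0.43, adjusted p = 0.347, edgeR's quasi-likelihood test), and the 95% interval ran from 0.350-fold to 1.34-fold. Without protoplasted replicate 1 it was -0.26 and without whole replicate 1 it was -0.24. For these 2 genes the intervals held both falls and rises, so no direction was established at this depth and spread.

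**Figure D2:**
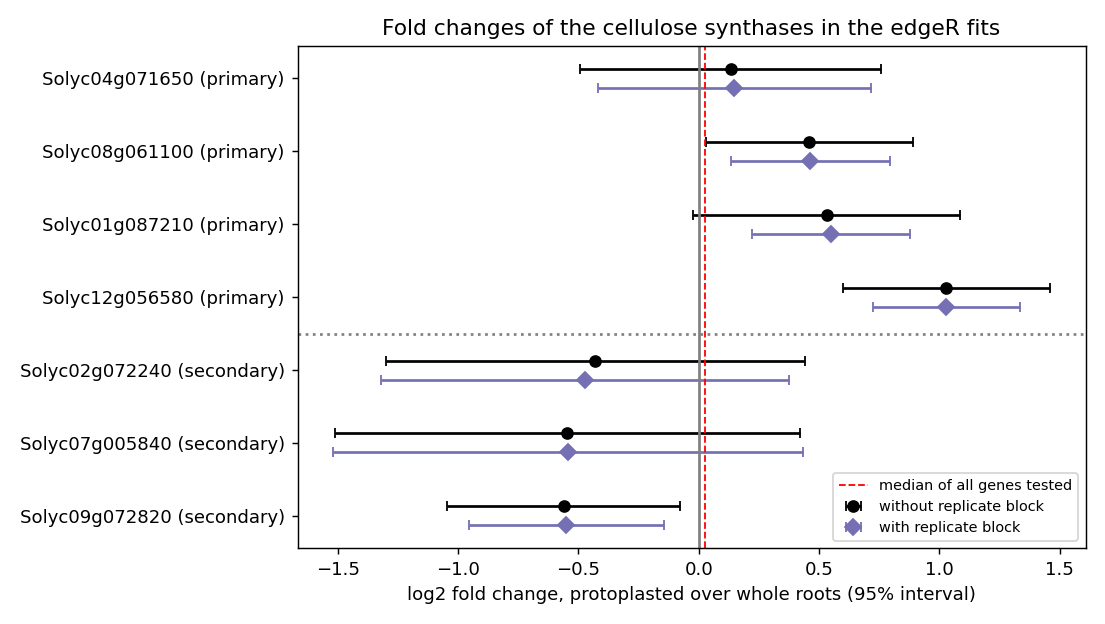
Log2 fold changes of the 7 cellulose synthases, protoplasted over whole roots, with 95% intervals from the edgeR fit without (circles) and with (diamonds) the replicate block. The dashed line is the median of all genes tested (0.025), and the 4 primary wall genes lie right of 0 while the 3 secondary wall genes lie left of it, although Solyc04g071650 moves to -0.038 with library-size scaling.

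The median log2 fold change was 0.50 for the primary class (range 0.13 to 1.03) and -0.55 for the secondary class (range -0.56 to -0.43), beside 0.025 for all genes tested. The secondary median moved with single libraries, and was -0.26 without protoplasted replicate 1 and -0.24 without whole replicate 1. Groups did not overlap in 3 of 4 primary wall genes and in 1 of 3 secondary wall genes, where 50.7% of genes tested did not overlap. A share of 4 of 7 (57.1%) is near that background. With the replicate block, 3 members were higher, where 25% of genes tested were, and 1 was lower, where 24.3% were, and Solyc12g056580 kept its call (log2 fold change 1.03, adjusted p = 3.3e-04, edgeR). Of all genes tested, 49.2% were called with the block and 35.7% without it.

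The balance between the classes can be read within each library, free of the scaling between libraries. For every 100 counts of primary wall CESA there were 3.28, 4.90 and 4.70 counts of secondary wall CESA in protoplasted replicates 1, 2 and 3, against 9.33, 10.2 and 9.04 counts in whole replicates 1, 2 and 3. The gap between the groups was wider than the range within either. Means were 4.29 ± 0.885 in protoplasted roots and 9.52 ± 0.603 in whole roots (SD, n = 3 each). Within replicate numbers the balance in protoplasted roots was 35.1%, 48.1% and 52.0% of that in whole roots. On the log2 scale the balance was lower by 1.17 in protoplasted roots (log2 of secondary over primary -4.57 ± 0.319 in protoplasted and -3.40 ± 0.0902 in whole roots, SD, n = 3 each). It is given without a p-value, since the classes were chosen with earlier results of these data known. Abundant members weigh most in these counts. With the mean log2 CPM over members in place of the sum, the difference, protoplasted minus whole, was -1.08.

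Both class sums lay apart between the groups, although they were not tested and single members weighed on them. Within the primary sum, Solyc12g056580 averaged 561 CPM in protoplasted and 275 CPM in whole roots. Within the secondary sum, Solyc09g072820 averaged 42.65 CPM in protoplasted and 62.92 CPM in whole roots. For the rest of the secondary class no direction was established. Summed primary wall CESA stood at 1478, 1419 and 1422 CPM in protoplasted replicates 1, 2 and 3, against 1085, 923 and 803 CPM in whole replicates 1, 2 and 3. Summed secondary wall CESA stood at 48.4, 69.5 and 66.8 CPM in protoplasted replicates 1, 2 and 3, against 101, 94.1 and 72.6 CPM in whole replicates 1, 2 and 3. Neither pair of sums overlapped, but the secondary sums of protoplasted replicate 2 and whole replicate 3 nearly met. The ratios within numbers were 1.36, 1.54 and 1.77 for the primary class and 0.479, 0.739 and 0.921 for the secondary class. They were thus lowest in replicate 1 for both classes. Together the 7 genes took 0.141% ± 0.00321 of the counts in protoplasted libraries and 0.108% ± 0.0210 in whole-root libraries (SD, n = 3 each).

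**Figure D3:**
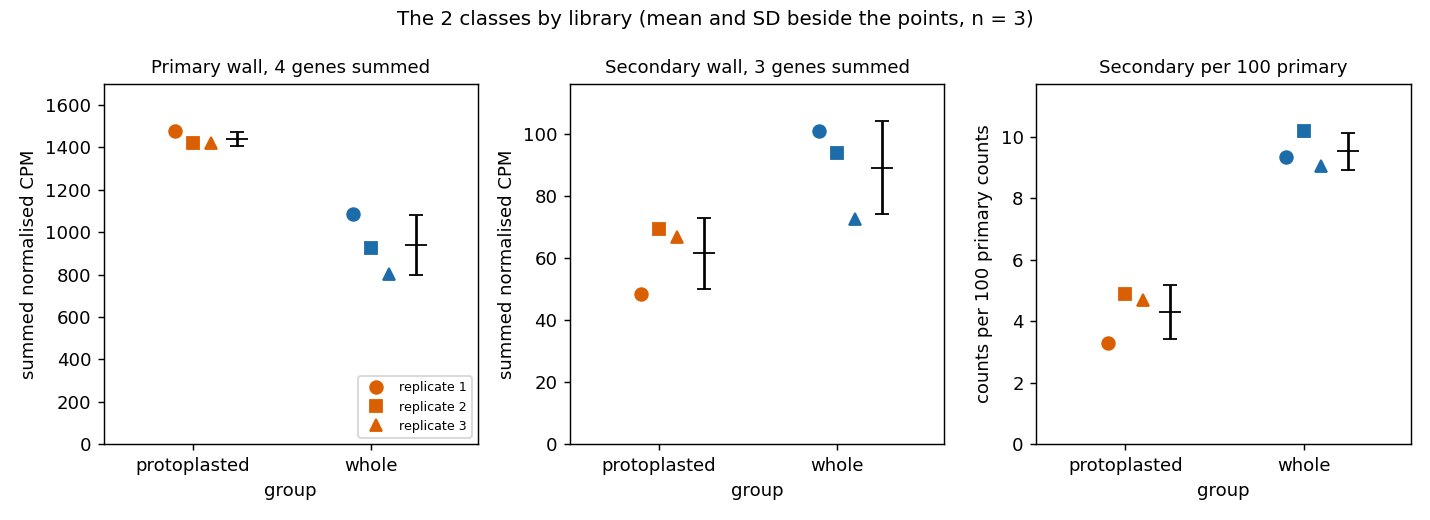
Summed normalised CPM of the primary wall and secondary wall cellulose synthases, and secondary wall counts per 100 primary wall counts, in each library (axes start at 0, crosses are mean and SD, n = 3). The balance lies between 3.28 and 4.90 in protoplasted roots and between 9.04 and 10.2 in whole roots.

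Within the primary class the order of levels changed. Solyc12g056580 stood above Solyc08g061100 in protoplasted roots (561 ± 48.8 against 467 ± 35.4 CPM) and below it in whole roots (275 ± 27.6 against 339 ± 41.5 CPM; SD, n = 3 each). The ratio of Solyc12g056580 to Solyc08g061100 was 1.35, 1.27 and 1.01 in protoplasted replicates 1, 2 and 3, against 0.723, 0.935 and 0.792 in whole replicates 1, 2 and 3. This pair was singled out after its values were seen, and its ratio was not tested. Solyc12g056580 took 38.9% ± 2.63 of the class in protoplasted roots and 29.6% ± 3.46 in whole roots (SD, n = 3 each). Solyc04g071650, which shares reads with it, took 11.9% ± 3.03 in protoplasted roots and 16.5% ± 2.22 in whole roots (SD, n = 3 each). The share of Solyc01g087210 was 16.7% ± 2.39 in protoplasted roots and 17.6% ± 1.80 in whole roots (SD, n = 3 each), a difference within the spread.

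Shares within the secondary class differed little. Solyc09g072820 took 70.3% ± 8.35 of it in protoplasted roots and 70.6% ± 5.02 in whole roots (SD, n = 3 each). For Solyc02g072240 the shares were 18.3% ± 5.47 in protoplasted and 17.7% ± 3.71 in whole roots, and for Solyc07g005840 11.4% ± 3.23 in protoplasted and 11.7% ± 2.51 in whole roots (SD, n = 3 each). These differences were all smaller than the spread between libraries.

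**Figure D4:**
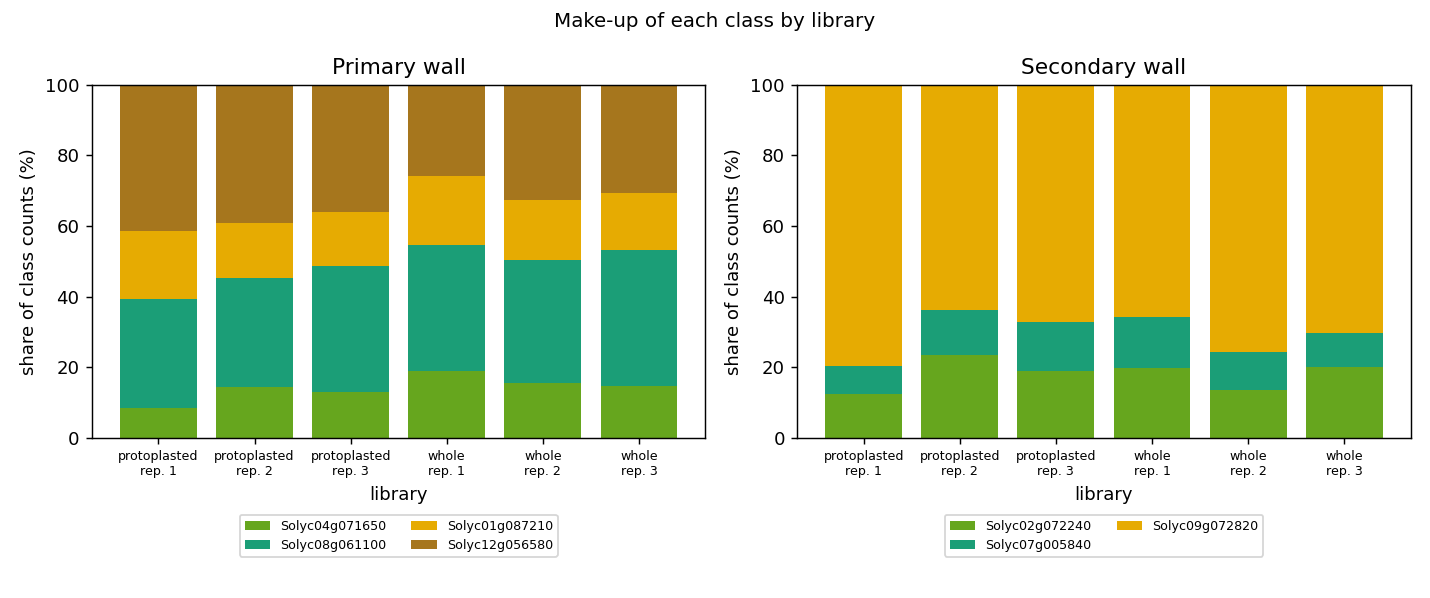
Share of the summed counts of each class taken by each member, in percent, by library (protoplasted left, whole roots right). Solyc12g056580 holds 36.2% to 41.4% of the primary class in protoplasted libraries and 25.8% to 32.5% in whole-root libraries, while Solyc09g072820 holds 63.9% to 79.7% of the secondary class in protoplasted and 65.7% to 75.8% in whole-root libraries.

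Ordered by level in protoplasted roots, the members ran Solyc12g056580, Solyc08g061100, Solyc01g087210, Solyc04g071650, Solyc09g072820, Solyc02g072240 and Solyc07g005840. In whole roots the first pair was exchanged. Neighbours whose libraries overlapped were Solyc02g072240 and Solyc07g005840 in both groups, and Solyc01g087210 and Solyc04g071650 in whole roots. Even the lowest primary wall gene was well above the highest secondary wall gene, by 4.01 times in protoplasted roots and 2.48 times in whole roots (ratio of mean CPM). By level, Solyc12g056580 exceeded 97.9% of the genes tested in protoplasted roots and 96.2% in whole roots. Solyc07g005840 exceeded 32.8% in protoplasted roots and 38.0% in whole roots.

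Single libraries bore on the spread. Protoplasted replicate 1 was the lowest protoplasted library for 4 of 7 members, namely Solyc04g071650 and all secondary wall genes, and the highest for Solyc01g087210 and Solyc12g056580. Whole replicate 1 was the highest whole-root library for 5 of 7 members, and whole replicate 3 was the lowest for 6 of 7. Without protoplasted replicate 1 the difference of the class medians, secondary minus primary, was -0.67 on the log2 scale, against -1.04 with all libraries. The coefficient of variation of Solyc02g072240 was 44.4% in protoplasted and 24.2% in whole roots, where counting alone would give 13.9% in protoplasted and 10.4% in whole roots. For Solyc12g056580 it was 8.70% in protoplasted and 10.0% in whole roots, where counting would give 1.88% in protoplasted and 2.47% in whole roots. Spread between libraries, rather than the number of reads, made up most of the coefficient in each of these cases. It did not for Solyc09g072820 in protoplasted roots (8.22%, where counting alone would give 6.84%).

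Other genes of wall formation were taken from the annotations of the study, which describe 13 genes as laccases (enzymes that couple lignin monomers), pectin-modifying enzymes, a xyloglucan endotransglucosylase/hydrolase, a peroxidase or a cell-wall invertase. These genes were selected by the study for their link to suberin and the exodermis, so they do not stand for wall genes at large. Of the 13, 11 were tested and all 11 were lower in protoplasted roots (adjusted p of 0.00812 or less, edgeR's quasi-likelihood test), where 18.7% of genes tested were lower. The most abundant laccase, Solyc06g082240, averaged 5.17 ± 6.81 CPM in protoplasted roots and 398 ± 128 CPM in whole roots (SD, n = 3 each). Solyc05g052370 averaged 4.05 ± 5.62 CPM in protoplasted roots and 230.3 ± 114 CPM in whole roots (SD, n = 3 each). Laccases Solyc05g052340, Solyc05g052360 and Solyc06g050530 averaged at most 0.362 CPM in protoplasted roots and at least 10.5 CPM in whole roots. Over the 5 laccases, log2 fold changes of -6.26 to -5.48 lay far outside the range of the cellulose synthases. The weaker laccases Solyc05g052340, Solyc05g052360 and Solyc06g050530 had at most 6 counts in any protoplasted library, so the size of their fold changes is uncertain. Protoplasted replicate 3 held most of the protoplasted counts of Solyc06g082240 (72) and Solyc05g052370 (58).

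Suberin genes and regulators that the study links to the exodermis, the outer cortical layer that carries suberin, moved with the groups. Of the MYB regulators among them, the study found only SlMYB92 restricted to the exodermal trajectory. Of 13 suberin genes and regulators named by the study, 12 were in the table and 11 were tested. All 11 were lower in protoplasted roots (adjusted p of 0.0271 or less, edgeR's quasi-likelihood test), where 18.7% of genes tested were lower. Their summed level was 13.6 to 51.1 CPM in protoplasted roots and 1430 to 2820 CPM in whole roots. SlGPAT5 had no count in protoplasted replicates 1 and 2, and SlMYB63 had at most 1 count in any library. The part of this shift in the values of the cellulose synthases was not tested. Xylem markers were not analysed here.

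Patterns most like those of the classes were sought among the other 15959 genes tested, over the 6 libraries. Solyc02g069080 followed the mean log2 CPM of the primary class most closely (Pearson r = 0.998), with 31.4 ± 0.387 CPM in protoplasted and 19.5 ± 4.02 CPM in whole roots (SD, n = 3 each). Solyc05g006020 followed the secondary class most closely (Pearson r = 0.984), with 1.36 ± 1.00 CPM in protoplasted and 5.03 ± 2.64 CPM in whole roots (SD, n = 3 each). The libraries fall into 2 groups, which alone can give a high r, and 383 genes had an r above 0.95 with the primary class and 22 with the secondary class. No source used here annotates either gene.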

How the data were processed

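RNA was read from 3 protoplasted and 3 whole-root libraries (QuantSeq 3′ mRNA-Seq FWD). The authors trimmed reads with Trim Galore 0.6.6, assigned read 1 to ITAG4.1 transcripts by Kallisto 0.46.2 and deposited estimated counts per gene model, without normalization. Molecular identifiers and strand use are not given in the sources used here. Limits from counts therefore cover counting error only, and 3 counts amount to 0.518 to 0.577 CPM.

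Columns were matched to samples by their labels. Estimated counts were rounded, filtered by filterByExpr (minimum count 10, minimum total 15), normalized by TMM and tested by the quasi-likelihood test of edgeR 4.0.16 (R 4.3.3) without a block. Benjamini-Hochberg adjustment covered 15966 genes, with a threshold of 0.05. Intervals of 95% came from the same fit. The test was checked on simulated counts.

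Same-numbered libraries deviated from their group means with correlations of 0.429, 0.114 and 0.538. These values cannot settle whether the numbers in the labels pair the libraries, and the study states no pairing. The main fit therefore had no block, and a blocked fit is given where it changes a call. No 2 libraries of a group matched within counting noise (smallest chi-square over its degrees of freedom, 14.8). Alternatives were DESeq2 1.42.0, limma-voom (limma 3.58.1), other normalizations and filters, the block, and each library left out.

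Members and lists were chosen with earlier results of these data known. Named genes were the members, the laccases and, for each class, the gene with the highest Pearson correlation (log2 CPM, prior count 2). The pair that shares reads, SlGPAT5 and SlMYB63 were named after their values were seen.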

Additional observations from a re-analysis of the deposited data

How the results depend on the processing

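Solyc12g056580 stayed higher in protoplasted roots in all 15 other settings tried, with log2 fold changes of 0.86 to 1.09 and adjusted p of 3.2e-05 to 0.0262. The medians kept their sign in each of them (0.32 to 0.65 for the primary and -0.73 to -0.24 for the secondary class), and the balance of secondary over primary counts did so in the 7 settings it was computed in (-1.28 to -0.99 in log2). Both weak secondary wall genes, Solyc02g072240 and Solyc07g005840, were called in none.

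With library size only, the median of all genes moved to -0.14 and 35.4% of calls were higher against 47.6% with TMM. Solyc04g071650 turned to -0.038, and Solyc09g072820 was called (-0.73), which made 1 member lower, where 33.4% of genes tested were called in either direction. With at least 10 counts in every sample, Solyc09g072820 was called (-0.66), again 1 member lower, where 30.5% of genes tested were called. There 0 other wall genes were left to call, since that filter removes genes that fell. With the replicate block, 3 members were higher and 1 lower, as Solyc08g061100 (0.46), Solyc01g087210 (0.55) and Solyc09g072820 (-0.55) passed. Over all genes the block gave 3985 higher and 3876 lower calls, against 2711 and 2981 without it. The 2 classes kept their medians under it (0.51 and -0.54). Counted together, the pair that shares reads was called at 0.76.

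Leaving out each library in turn gave 1522 to 2747 genes higher and 2059 to 3082 lower, with the fewest higher calls without protoplasted replicate 2 (1522) and whole replicate 2 (1726). It gave 1 to 2 members higher and 0 to 1 lower, where 21.5% to 35.4% of genes tested were called in either direction. Values ran from -0.032 to 0.38 for Solyc04g071650, below 0 without protoplasted replicate 2 (-0.032) and without whole replicate 3 (-0.032), from 0.36 to 0.74 for Solyc01g087210, from -0.69 to -0.47 for Solyc09g072820, from -0.77 to -0.14 for Solyc02g072240, from -0.80 to -0.24 for Solyc07g005840, from -0.73 to -0.24 for the secondary median, and from -1.24 to -0.67 for the difference of class medians, which was nearest 0 without protoplasted replicate 1. The causes were not tested.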
